A study of Mus musculus with 42 samples.

Results

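The 6 regulators of G protein signalling described here are Rgs1, Rgs2, Rgs10, Rgs14, Rgs18 and Rgs19. They were taken by symbol from a gene-level table of mouse macrophage RNA, and all 6 are among its 11160 genes. RNA sequencing was done on bone marrow-derived macrophages, cells grown from mouse marrow with the growth factor M-CSF, which were replated the day before use. Cells were wild type (WT) or knockout (KO) for MS4A4A, a tetraspan membrane protein of macrophages. Some were left untreated and are labelled as the baseline at 0 h. The rest were exposed for 2, 8 or 24 h to dexamethasone (Dex), a synthetic glucocorticoid, at 1 µM, or to vehicle. Both genotypes went through all 7 conditions, so there are 14 groups of 3 libraries, 42 in all. The labels give neither the strain, age and number of the mice, nor the part of the gene that was deleted, nor whether replicates stand for different mice or cultures. The p-values therefore measure the spread between these libraries, which may be technical.

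RGS proteins speed up the hydrolysis of GTP by the alpha subunits of heterotrimeric G proteins, and so shorten the signal that a G protein-coupled receptor sends when its ligand binds. In macrophages such receptors sense chemokines, lipids, nucleotides, adrenaline and prostaglandins. Rgs1, Rgs2 and Rgs18 are small proteins of the same subfamily, made of little more than the RGS domain. Rgs1 and Rgs18 act on Gi and Gq alpha subunits and Rgs2 favours Gq. Rgs10 is a short member of another subfamily and is known in microglia as a brake on inflammatory signalling. Rgs14 belongs to that same subfamily and adds Ras-binding domains and a GoLoco motif, which holds Gi alpha in its GDP-bound form. Rgs19, also called GAIP, has a cysteine string through which it attaches to membranes.

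The libraries held 10140200 to 33528400 counts (median 27998700), the lowest being WT untreated replicate 3. Levels are given as CPM, counts relative to library size, scaled between libraries with TMM factors of 0.950 to 1.04. Ms4a4a, the targeted gene, was lower in KO cells, with 91.9, 81.8 and 93.5 CPM in untreated WT libraries and 44.3, 46.3 and 49.6 CPM in untreated KO libraries (log2 -1.05 ± 0.11 SE over the 4 conditions without Dex, adjusted p = 3.01e-07). Its transcript was thus still measured in KO libraries. The KO libraries lay below the WT libraries in 6 of the 7 conditions. The exception was vehicle at 24 h, where WT had 213, 142 and 148 CPM and KO 93.0, 179 and 53.5 CPM (-0.63 ± 0.21, adjusted p = 0.609). The library labelled KO vehicle 24 h replicate 2 thus had an Ms4a4a level within the WT vehicle range. Ms4a4a also rose with Dex at 24 h, by 3.24 ± 0.22 on the log2 scale in WT and 2.82 ± 0.22 in KO cells. The reason for the level in that library was not tested. That library also stood apart on a scale where the WT vehicle mean of the Dex-responsive genes is 0 and the WT Dex mean is 1, at 0.197. The other 17 vehicle libraries lay between -0.045 and 0.052 and the 18 Dex libraries between 0.940 and 1.06. The WT libraries set this scale and its genes, so they lie near 0 and 1 partly by construction. Results that use KO vehicle 24 h replicate 2 are also given without it where a call changes. Whether its label is right was not tested. All 10 macrophage markers on the list were measured, with a summed level of 18294 to 42741 CPM, among them Csf1r and Adgre1.

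Rgs2, Rgs1 and Rgs18 are neighbours on the minus strand of chromosome 1 (GRCm38, GENCODE). Rgs2 spans chr1:143999338-144004161, Rgs1 chr1:144242296-144249242 and Rgs18 chr1:144752683-144775435. The 776.1 kb from the first to the last hold 5 protein-coding genes, all of the RGS family, and the other two, Rgs13 and Rgs21, were not analysed here. Rgs10 lies on chr7:128373621-128418758 (minus strand), Rgs14 on chr13:55369732-55384687 (plus strand) and Rgs19 on chr2:181688419-181693977 (minus strand). RefSeq promoter windows (GRCm38.p6) matched 3 of the 6 genes. The 250 bases before the start are shown for Rgs2, which had the largest fitted Dex response of the 6 at each time, and for Rgs19, which had little. The Rgs2 window is chr1:144004150-144004399 and the Rgs19 window, the farthest upstream of its 3 starts, is chr2:181693978-181694227, both read on the minus strand. Capitals mark the core of the cAMP response element, TGACG on either strand.
Rgs2: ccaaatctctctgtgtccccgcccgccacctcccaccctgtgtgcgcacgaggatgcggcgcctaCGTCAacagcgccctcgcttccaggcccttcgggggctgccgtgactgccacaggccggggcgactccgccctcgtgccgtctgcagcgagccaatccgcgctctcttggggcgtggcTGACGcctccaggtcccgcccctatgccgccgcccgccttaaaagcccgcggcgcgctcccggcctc
Rgs19: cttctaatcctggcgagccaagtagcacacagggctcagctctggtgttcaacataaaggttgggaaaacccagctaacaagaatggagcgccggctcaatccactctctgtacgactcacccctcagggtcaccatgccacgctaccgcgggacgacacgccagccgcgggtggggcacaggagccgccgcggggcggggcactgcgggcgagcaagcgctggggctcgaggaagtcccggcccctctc
In the Rgs2 window that core is found at bases 185 to 181 before the start, where it reads CGTCA on the strand shown, and at bases 67 to 63. The last 12 bases of the window lie in a GENCODE exon of Rgs2. TGACG was in 17.8% of 32851 such windows. The full glucocorticoid receptor site, searched as GNACA and TGTNC with 3 bases between them, was in 0.387% of the windows, the full cAMP response element TGACGTCA in 1.55% and the AP-1 site TGANTCA in 6.75%, all on both strands and none in the windows of Rgs2, Rgs10 or Rgs19. These matches describe letters only.

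Divided by the length of the longest coding transcript, the untreated levels ran from Rgs2 (median 161 CPM per kb over 6 libraries) through Rgs1 (95.2), Rgs10 (71.6), Rgs18 (58.4) and Rgs19 (49.9) to Rgs14 (7.70). Rgs2 lay above all others and Rgs14 below all others in every untreated library. The ranges of neighbours between them met: Rgs1 went down to 83.6 CPM per kb and Rgs10 up to 86.2, and Rgs10 overlapped Rgs18, as Rgs18 did Rgs19. With the length of all exons in place of the longest transcript, Rgs18 (60.2 CPM per kb in WT) came above Rgs1 (54.0), so this order of neighbours depends on the transcript assumed.

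Dex changed 3 of the 6 genes at 2 h and 5 at 8 and at 24 h, in different directions. Averaged over the genotypes at 2 h, Rgs14 and Rgs18 were higher and Rgs2 was lower than with vehicle, at an adjusted p under 0.05. Of all genes tested, 14.5% were called at 2 h, 8.14% higher and 6.41% lower. At 8 h Rgs14 was higher and Rgs1, Rgs2, Rgs10 and Rgs19 were lower, in a comparison that called 52.2% of all genes (27.5% higher, 24.7% lower). At 24 h Rgs14 was again higher and Rgs1, Rgs2, Rgs10 and Rgs18 were lower, where 53.6% of all genes were called (26.8% higher, 26.8% lower). The median log2 fold change of the 6 was -0.06 at 2 h, -0.35 at 8 h and -0.73 at 24 h, and that of all genes was -0.005, 0.012 and 0.008. At 8 and 24 h, calls were thus frequent over the whole table, and the sizes and directions of the single genes carry the description that follows. The cells were lysed in bulk, so less RNA per cell and fewer cells of a type cannot be told apart.

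**Figure D1:**
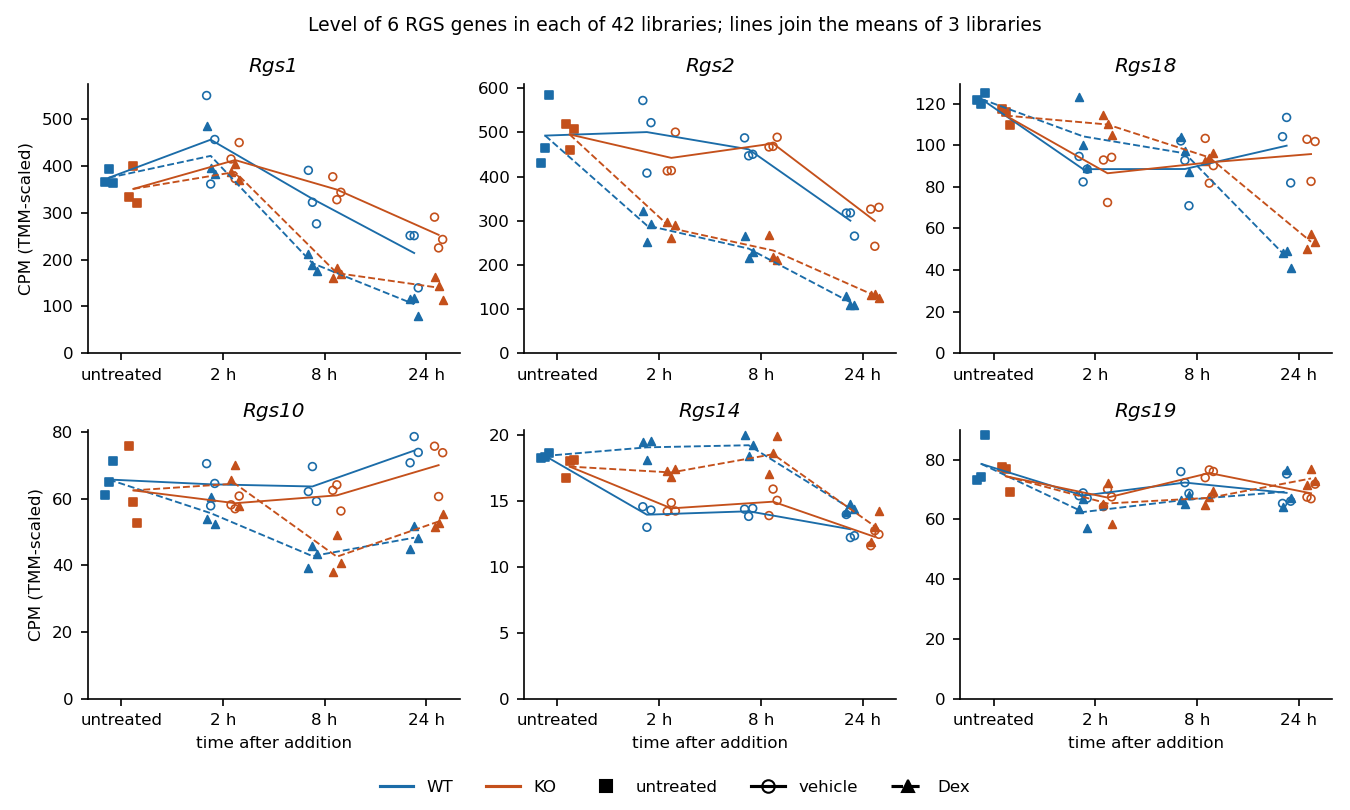
Level of each of the 6 RGS genes (CPM, vertical axis from 0) in every library, by condition (horizontal axis, categories, not to scale in time), in blue for WT and orange for KO, with squares for untreated, open circles for vehicle and triangles for Dex, and lines joining the group means of 3 libraries. Rgs2 lies lower with Dex at 2, 8 and 24 h, Rgs1 and Rgs10 at 8 and 24 h and Rgs18 at 24 h, while Rgs14 lies higher with Dex at 2 and 8 h.

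Rgs2, the regulator with a preference for Gq, was lower with Dex at every time. At 2 h the WT libraries had 572, 408 and 522 CPM with vehicle and 323, 253 and 293 CPM with Dex, and the KO libraries had 413, 414 and 501 against 297, 261 and 291 CPM. At 8 h WT cells had 488, 447 and 451 against 266, 217 and 229 CPM, and KO cells 467, 469 and 489 against 269, 219 and 211 CPM. At 24 h WT cells had 318, 318 and 265 against 129, 109 and 109 CPM, and KO cells 326, 242 and 331 against 132, 135 and 125 CPM. At each time all 6 Dex libraries lay below all 6 vehicle libraries. The share of all genes that separate by Dex in this way was not counted, here or for the genes below. Rgs2 fell by 0.72 ± 0.09 on the log2 scale at 2 h (adjusted p = 9.89e-08), to 60.8% of the vehicle level. It fell by 1.00 ± 0.09 at 8 h (adjusted p = 2.09e-11), to 50.1%, and by 1.29 ± 0.09 at 24 h (adjusted p = 4.87e-14), to 40.9%. The lowest vehicle library at 24 h, 242 CPM, was the library labelled KO replicate 2, and without it the change was -1.37.

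Rgs1, a neighbour of Rgs2 known for restraining chemokine receptor signalling in lymphocytes, was lower only from 8 h. At 2 h its WT libraries had 551, 362 and 457 CPM with vehicle and 486, 396 and 383 CPM with Dex, and its KO libraries 415, 373 and 450.3 against 388, 405 and 369 CPM. The 2 h groups overlapped, and the difference (-0.10 ± 0.12, adjusted p = 0.756) did not pass the test. At 8 h the WT libraries had 391, 323 and 277 against 213, 189 and 175 CPM, and the KO libraries 377, 328 and 344 against 161, 183 and 169 CPM. At 24 h they had 252, 251 and 139.8 against 117, 119 and 79.1 CPM in WT and 291, 225 and 243 against 163, 144 and 113 CPM in KO. Within each genotype the Dex libraries lay below the vehicle libraries at 8 and 24 h. Across genotypes they overlapped at 24 h, since WT vehicle replicate 3 lay below the highest KO Dex libraries. Rgs1 fell by 0.90 ± 0.12 at 8 h (adjusted p = 1.58e-07), to 53.4% of the vehicle level, and by 0.94 ± 0.12 at 24 h (adjusted p = 7.65e-08), to 52.1%.

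Rgs18, which is abundant in the megakaryocyte and platelet lineage, changed direction over time. At 2 h its WT libraries had 94.6, 82.4 and 88.5 CPM with vehicle and 123, 100.2 and 89.2 CPM with Dex, and its KO libraries 92.9, 72.5 and 94.2 against 115, 110.2 and 105 CPM. In KO cells the groups were apart, and in WT cells Dex replicate 3 lay within the vehicle range. The rise at 2 h was 0.29 ± 0.09 (adjusted p = 0.0189). It rests on a few libraries: the call was lost without WT Dex replicate 1 (0.22, adjusted p = 0.108), WT vehicle replicate 2 (0.26, adjusted p = 0.0593) or KO vehicle replicate 2 (0.23, adjusted p = 0.0897). Within a genotype it passed in neither (WT 0.24, adjusted p = 0.296, and KO 0.35, adjusted p = 0.0754), and the KO value passed with replicate number as a block (adjusted p = 0.0332) and with DESeq2 (adjusted p = 0.0497). At 8 h the levels overlapped, from 70.9 to 103 CPM with vehicle and from 87.2 to 104 CPM with Dex (0.08 ± 0.09, adjusted p = 0.487). At 24 h WT cells had 104, 113 and 81.9 CPM with vehicle and 48.3, 49.4 and 40.8 CPM with Dex, and KO cells had 103, 82.6 and 102 against 50.4, 57.2 and 53.3 CPM. All 6 Dex libraries then lay below all 6 vehicle libraries, and Rgs18 fell by 0.97 ± 0.09 (adjusted p = 3.09e-11), to 50.9% of the vehicle level.

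Rgs10 was lower with Dex at the same times as Rgs1, by smaller fitted amounts. At 8 h its WT libraries had 62.1, 69.6 and 59.2 CPM with vehicle and 39.3, 45.7 and 43.3 CPM with Dex, and its KO libraries 62.5, 64.2 and 56.3 against 38.1, 49.1 and 40.6 CPM. At 24 h they had 70.8, 78.6 and 73.9 against 45.0, 51.7 and 48.1 CPM in WT and 75.7, 60.6 and 73.8 against 51.6, 52.6 and 55.3 CPM in KO. At both times the 6 Dex libraries lay below the 6 vehicle libraries. Rgs10 fell by 0.55 ± 0.08 at 8 h (adjusted p = 3.26e-07), to 68.5% of the vehicle level, and by 0.51 ± 0.08 at 24 h (adjusted p = 1.03e-06), to 70.2%. At 2 h the libraries overlapped, from 57.0 to 70.5 CPM with vehicle and from 52.4 to 70.0 CPM with Dex (-0.04 ± 0.08, adjusted p = 0.898). The annotation places a noncoding transcript, Gm15503, on the same strand overlapping Rgs10, and it was not analysed here.

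Rgs14, the member with a GoLoco motif, was the only one of the 6 that was higher with Dex at all 3 times. At 2 h its WT libraries had 14.5, 12.98 and 14.3 CPM with vehicle and 19.5, 18.1 and 19.6 CPM with Dex, and its KO libraries 14.2, 14.8 and 14.2 against 17.3, 16.8 and 17.4 CPM. At 8 h they had 14.4, 13.8 and 14.4 against 19.95, 18.4 and 19.3 CPM in WT and 13.9, 15.9 and 15.0 against 17.0, 18.6 and 19.9 CPM in KO. At both times all 6 Dex libraries lay above all 6 vehicle libraries. The rise was 0.35 ± 0.05 at 2 h (adjusted p = 1.28e-06), to 127% of the vehicle level, and 0.37 ± 0.05 at 8 h (adjusted p = 1.02e-07), to 130%. At 24 h WT libraries had 13.95, 12.2 and 12.3 against 14.1, 14.7 and 14.4 CPM, and KO libraries 11.6, 12.7 and 12.4 against 11.9, 13.02 and 14.2 CPM, so the KO groups overlapped. The 24 h difference was 0.13 ± 0.05 (adjusted p = 0.0362). That call was lost with DESeq2 (0.11, adjusted p = 0.0954), with only the groups compared in the fit (0.12, adjusted p = 0.172) and among genes of at least 5 CPM (0.12, adjusted p = 0.0586). It was also lost without any 1 of 8 libraries at 24 h, WT Dex replicates 1, 2 and 3, WT vehicle replicates 2 and 3, KO vehicle replicate 1 and KO Dex replicates 2 and 3, with values from 0.08 to 0.13 and adjusted p from 0.0502 to 0.186.

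Rgs19 moved least. Its 42 libraries lay between 57.1 and 88.4 CPM, and the ranges with vehicle and Dex overlapped at each time when the genotypes were pooled. At 8 h it had 76.0, 72.3 and 68.6 CPM with vehicle and 66.5, 65.1 and 68.0 CPM with Dex in WT, and 73.9, 76.5 and 76.0 against 64.7, 67.5 and 69.4 CPM in KO. Within each genotype the Dex libraries were the lower ones. The 8 h difference was -0.14 ± 0.05 (adjusted p = 0.0265), to 90.5% of the vehicle level, and the call was lost without WT vehicle 8 h replicate 1 (-0.13, adjusted p = 0.073). At 2 h (-0.08, 95% interval -0.19 to 0.03) and 24 h (0.05, 95% interval -0.05 to 0.16) it did not pass the test.

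**Figure D2:**
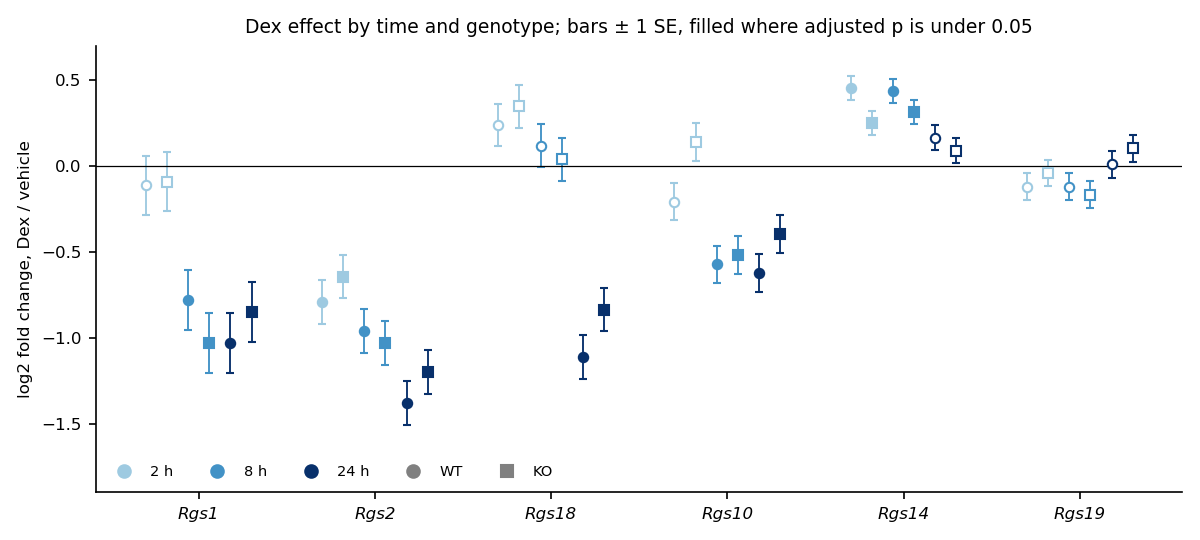
Log2 fold change of Dex against vehicle (vertical axis, bars ± 1 SE) for each RGS gene (horizontal axis) at 2, 8 and 24 h (light to dark), with circles for WT and squares for KO, filled where the adjusted p was under 0.05. The WT and KO values lie on the same side of 0 for every gene and time except Rgs10 at 2 h. There Rgs10 lies at -0.21 in WT and 0.14 in KO, neither past the test.

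The Dex effect itself differed between times for 4 of the 6 genes. From 2 to 8 h it became more negative for Rgs1 (by 0.80 ± 0.17 on the log2 scale, adjusted p = 0.000504) and Rgs10 (by 0.51 ± 0.11, adjusted p = 0.000441), and 31.0% of all genes passed that test (16.9% higher, 14.1% lower). From 8 to 24 h it became more negative for Rgs18 (by 1.05 ± 0.13, adjusted p = 5.40e-08) and less positive for Rgs14 (by 0.25 ± 0.07, adjusted p = 0.00918), where 25.9% of all genes passed (9.92% higher, 16.0% lower). For Rgs2 the steps were -0.28 (adjusted p = 0.0928) and -0.29 (adjusted p = 0.0866), neither past the test. Both passed with replicate number as a block (adjusted p = 0.0393 and 0.0419). Without the library labelled KO vehicle 24 h replicate 2 the Rgs2 step from 8 to 24 h passed (-0.36, adjusted p = 0.0288), and its step from 2 to 8 h passed without WT vehicle 2 h replicate 1 (-0.33, adjusted p = 0.0451) or KO Dex 8 h replicate 1 (-0.35, adjusted p = 0.0359). For Rgs19 the step from 8 to 24 h was 0.20 ± 0.08 (adjusted p = 0.0558). With replicate number as a block this step passed (adjusted p = 0.0367). It passed with DESeq2 (0.21, adjusted p = 0.0314), with median-ratio scaling (0.21, adjusted p = 0.0451), with only the groups compared in the fit (0.20, adjusted p = 0.0358), and without WT Dex 24 h replicate 1, KO vehicle 24 h replicate 3, WT vehicle 24 h replicate 2 or WT vehicle 8 h replicate 3 (0.22 to 0.24, adjusted p 0.0206 to 0.0485). Rgs2 was thus the only gene of the 6 called lower at all 3 times.

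Levels of several marker lists of other cells were apart between vehicle and Dex at the later times, and no list sum was tested. At 24 h the 1 measured of 10 T and NK cell markers, Cd4, lay at 7.74 to 14.3 CPM with vehicle and 1.68 to 6.23 CPM with Dex, and the 1 measured of 6 B cell markers, Cd79b, at 1.59 to 2.13 against 0.482 to 0.771 CPM. The 4 measured of 6 dendritic cell markers summed to 11.1 to 17.3 CPM with vehicle and 5.11 to 7.23 CPM with Dex. Itgax makes up most of that sum, with a median over all libraries of 9.66 CPM. Flt3, Zbtb46 and Ccr7 had medians of 0.349, 0.756 and 0.736 CPM. Kit, the 1 measured of 6 mast cell and basophil markers, lay at 4.47 to 9.77 against 1.03 to 3.94 CPM at 8 h and 3.22 to 6.87 against 0.482 to 2.26 CPM at 24 h. The 5 measured of 8 stromal markers summed to 5.94 to 16.6 CPM with vehicle and 10.6 to 44.2 CPM with Dex at 24 h. These sums were apart in KO cells and overlapped in WT cells. The 4 measured of 9 neutrophil markers summed to 16.1 to 52.6 against 9.88 to 33.4 CPM at 24 h, overlapping in both genotypes. Of 6 erythroid markers 0 were measured. The 4 measured of 8 osteoclast markers summed at 8 h to 101 to 110.4 CPM with vehicle and 108.9 to 119 CPM with Dex, and at 24 h to 83.6 to 99.2 against 95.9 to 118 CPM. Within each genotype the Dex sums of that list lay above the vehicle sums at both times. Nfatc1 makes up most of them, with a median over all libraries of 70.2 CPM. Acp5, Ctsk and Dcstamp had medians of 21.6, 8.14 and 4.62 CPM. The part of other cells in the changes of Rgs1, Rgs2, Rgs10 and Rgs18 was not tested. Of 8 megakaryocyte markers 3 were measured: Pf4 at 224 to 505 CPM, Ppbp at 0.453 to 6.17 CPM and Treml1 at 0.528 to 1.57 CPM over all libraries. Pf4 makes up nearly all of their sum, which at 24 h was 257 to 470 CPM with vehicle and 331 to 509 CPM with Dex. At 24 h Dex against vehicle gave 0.29 ± 0.14 for Pf4 (adjusted p = 0.076), 1.02 ± 0.30 for Ppbp (adjusted p = 0.00424) and -0.37 ± 0.17 for Treml1 (adjusted p = 0.0814). Their part in the Rgs18 change was not tested either.

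Vehicle cells are not a constant baseline for these genes. The untreated libraries are labelled 0 h, and no untreated cells were taken at later times. An effect of vehicle and one of time in culture cannot be told apart in these comparisons. Against untreated cells, averaged over the genotypes, vehicle was lower at 2 h for Rgs14, Rgs18 and Rgs19 (13.8% of all genes called, 7.03% higher and 6.72% lower). At 8 h it was lower for Rgs14 and Rgs18 (18.2% of all genes called, 8.49% higher and 9.66% lower). At 24 h it was lower for all but Rgs10 (31.0% of all genes called, 15.6% higher and 15.4% lower). Rgs14 fell by 0.34 ± 0.05 at 2 h, 0.30 ± 0.05 at 8 h and 0.52 ± 0.05 at 24 h (adjusted p = 8.61e-06, 2.81e-05 and 6.52e-10). Rgs18 fell by 0.43 ± 0.09, 0.39 ± 0.09 and 0.27 ± 0.09 (adjusted p = 0.0007, 0.00153 and 0.0169). Rgs1 fell by 0.64 ± 0.12 (adjusted p = 0.000117) and Rgs2 by 0.72 ± 0.09 (adjusted p = 9.32e-08) at 24 h. The same 6 untreated libraries serve all 3 comparisons. The 24 h Rgs18 call was lost without WT vehicle 24 h replicate 3 (-0.21, adjusted p = 0.0739) and without the library labelled KO vehicle 24 h replicate 2 (-0.22, adjusted p = 0.0684), the former leaving 3 of the 6 called. Rgs10 was not called at 24 h (0.17 ± 0.08, adjusted p = 0.0869), and it was called higher without the library labelled KO vehicle 24 h replicate 2 (0.22, adjusted p = 0.0306) or KO untreated replicate 1 (0.26, adjusted p = 0.00748).

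The Rgs19 calls against untreated cells were small and depended on single libraries. Its 2 h change (-0.18 ± 0.05, adjusted p = 0.0279) lost its call with only the groups compared in the fit (-0.17, adjusted p = 0.102). It also did so without any 1 of KO untreated replicates 1 and 2, WT untreated replicate 3, WT vehicle 2 h replicate 3 and KO vehicle 2 h replicates 1 and 3 (-0.18 to -0.13, adjusted p 0.05 to 0.128). Its 24 h change (-0.15 ± 0.05, adjusted p = 0.0349) lost its call with only the groups compared (-0.16, adjusted p = 0.108). The same held without any 1 of KO untreated replicates 1 and 2, WT untreated replicate 3, WT vehicle 24 h replicates 1 and 3 and those labelled KO vehicle 24 h replicates 1 and 2 (-0.14 to -0.11, adjusted p 0.0701 to 0.148).

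Set beside the untreated cells, the higher Rgs14 level with Dex was close to where the cells began. Untreated libraries had 18.2, 18.3 and 18.6 CPM in WT and 16.7, 18.0 and 18.1 CPM in KO, and the Dex libraries overlapped that range in both genotypes at 2 and 8 h. The vehicle libraries lay below it at every time, and at 24 h the Dex libraries did too. Rgs18 gave a like picture at 2 h, where untreated libraries had 122, 119.9 and 125 CPM in WT and 117, 116 and 109.7 CPM in KO and the Dex libraries overlapped them. From 8 h both its vehicle and Dex libraries lay below the untreated ones. Rgs2 with Dex was below the untreated range in both genotypes at all 3 times, and Rgs1 at 8 and 24 h. Dex was not tested against untreated cells, and the tests above share the vehicle libraries.

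Loss of MS4A4A did not give a called difference for any of the 6 genes. Over 7 conditions there are 42 values of KO against WT, from -0.18 to 0.42 on the log2 scale with a median SE of 0.12, 17 above 0 and 25 below. With edgeR 0 of the 42 were called, with DESeq2 0, and 2 had an unadjusted p under 0.05. The share of all genes called was 0.00% in untreated cells, 0.00896% after vehicle for 2 h, 0.00896% for 8 h and 0.00% for 24 h. After Dex it was 0.00% at 2 h, 0.00% at 8 h and 0.0448% at 24 h, and over the mean of the 4 conditions without Dex, where again 0 of the 6 were called, it was 0.224%. Those 2 were Rgs1 after 24 h of Dex, with 117, 119 and 79.1 CPM in WT and 163, 144 and 113 CPM in KO (0.42 ± 0.17, 95% interval 0.07 to 0.76, adjusted p = 0.553), and Rgs14 after 2 h of Dex (-0.15 ± 0.07, 95% interval -0.29 to -0.02, adjusted p = 0.575). The WT and KO libraries did not overlap in 4 of the 42 values (9.52%), Rgs14 and Rgs18 in untreated cells, Rgs14 after 2 h of Dex and Rgs18 after 24 h of Dex. Over all genes and the same 7 conditions this share was 8.97%, so the count says nothing particular to the 6 genes. The KO group at 24 h of vehicle holds the library with Ms4a4a in the WT vehicle range. Without that library the 6 values lay between -0.10 and 0.32, each at an adjusted p of 0.999. A p that misses the threshold does not show that the genotypes are alike.

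The Dex effect was then compared between the genotypes. Within WT cells Rgs14 was called higher and Rgs2 lower at 2 h (9.02% of all genes called, 5.85% higher and 3.17% lower). At 8 h Rgs14 was higher and Rgs1, Rgs2 and Rgs10 were lower (37.0% of all genes, 19.8% higher and 17.2% lower), and at 24 h Rgs1, Rgs2, Rgs10 and Rgs18 were lower (41.7% of all genes, 20.7% higher and 21.0% lower). Within KO cells the same genes were called in the same directions at 2 h (10.4% of all genes, 5.76% higher and 4.63% lower), 8 h (38.5%, 20.6% higher and 17.9% lower) and 24 h (38.3%, 18.2% higher and 20.1% lower). The Rgs14 call at 2 h in KO cells (0.25 ± 0.07, adjusted p = 0.0158) was lost with only the groups compared (0.25, adjusted p = 0.151). It was also lost without KO vehicle 2 h replicate 1 (0.24, adjusted p = 0.0605), KO Dex 2 h replicate 1 (0.25, adjusted p = 0.0514) or KO vehicle 2 h replicate 3 (0.24, adjusted p = 0.0577), leaving 1 gene of the 6. Rgs19 in KO cells at 8 h (-0.17 ± 0.08, adjusted p = 0.0856) passed with DESeq2 (-0.19, adjusted p = 0.0424) and with only the groups compared (-0.19, adjusted p = 0.0287). Rgs14 in WT cells at 24 h (0.16 ± 0.07, adjusted p = 0.0638) passed with the replicate block fitted within each genotype (0.17, adjusted p = 0.0300) and without WT vehicle 24 h replicate 1 (0.23, adjusted p = 0.0205).

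A test of the difference itself called 0 of the 6 genes at 2, 8 and 24 h with edgeR, 0 with DESeq2, and 0.00% of all genes at each time with edgeR. At an unadjusted p under 0.05 stood 1 of these 18 values, Rgs10 at 2 h. Its WT libraries had 70.5, 57.8 and 64.6 CPM with vehicle and 54.0, 60.5 and 52.4 CPM with Dex, and its KO libraries 58.1, 57.0 and 60.8 against 65.6, 70.0 and 57.9 CPM, so the treatments overlapped in both genotypes. The Dex effect in KO beyond WT was 0.35 ± 0.15 (95% interval 0.04 to 0.65, adjusted p = 0.544). For the largest Dex response, Rgs2 at 24 h, the difference was 0.18 (95% interval -0.17 to 0.53).

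**Figure D3:**
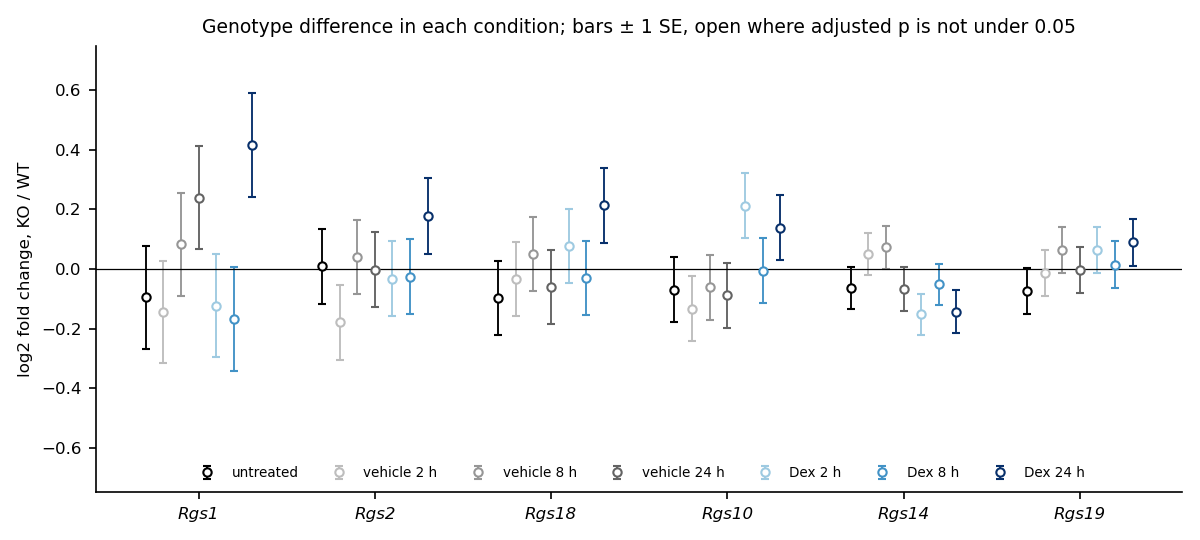
Log2 fold change of KO against WT (vertical axis, bars ± 1 SE) for the 6 RGS genes (horizontal axis) in the 7 conditions (colours). All 42 points are open, since none had an adjusted p under 0.05, and the highest is Rgs1 after 24 h of Dex at 0.42.

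The counts for the lists below stand beside 14.5% of all genes called at 2 h (8.14% higher, 6.41% lower), 52.2% at 8 h (27.5% and 24.7%) and 53.6% at 24 h (26.8% and 26.8%), and no list was tested against the other genes. Other proteins with an RGS domain or a related fold were measured for 17 of 29 on the list, and Dex called 2 of them lower and 0 higher at 2 h, 4 higher and 3 lower at 8 h and 4 higher and 5 lower at 24 h. Rgs3, a Gi and Gq regulator, was lower at all 3 times (-0.27, -0.39 and -0.37). Rgs16, whose gene lies on chromosome 1 outside the Rgs2 to Rgs18 interval, had 2.05 ± 0.825 CPM (SD, n = 3) in WT vehicle and 0.353 ± 0.126 CPM in WT Dex libraries at 2 h. Its change was -2.48 ± 0.42 at 2 h and -2.14 ± 0.42 at 8 h, both called, and -0.24 ± 0.37 at 24 h, not called. Rgs12, which like Rgs14 carries a GoLoco motif, was lower at 24 h (-1.23 ± 0.14), where Rgs14 was not. Grk6, a receptor kinase with an RGS-like domain, was higher at 8 h (0.60 ± 0.05) and 24 h (0.58 ± 0.05). Of 10 GoLoco proteins and RGS partners 6 were measured, with 0 called at 2 h, 2 higher and 1 lower at 8 h and 0 and 2 at 24 h. Among them Gnb5, the beta subunit that pairs with another RGS subfamily, was lower at 8 and 24 h (-0.62 and -0.63).

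The G protein subunits that RGS proteins act on, and their partners, were also counted, again beside 14.5%, 52.2% and 53.6% of all genes called at 2, 8 and 24 h. Of 7 Gi-type alpha subunits 3 were measured, and Gnai3 at 8 h (-0.14 ± 0.04) was the 1 called. Of 4 Gq-type subunits 3 were measured: Gnaq was lower at 8 h (-0.53 ± 0.06) and 24 h (-0.21 ± 0.06), Gna15 was lower at all 3 times (-0.41, -0.51 and -0.56) and Gna11 was higher at 8 and 24 h (0.29 and 0.45). All 4 Gs and G12 type subunits were measured, with 1 higher and 0 lower at 2 h, 0 and 1 at 8 h and 1 and 2 at 24 h. Gnas, which encodes the stimulatory alpha subunit, was lower at 24 h (-0.73 ± 0.05), from 1122 ± 57.7 to 637 ± 24.6 CPM (SD, n = 3) in WT cells. Of 16 beta and gamma subunits 11 were measured, with 1 higher and 1 lower at 2 h, 2 and 6 at 8 h and 2 and 5 at 24 h. Gng2 was higher at all 3 times (0.25, 0.78 and 0.59) and Gnb4 was lower at all 3 (-0.23, -0.56 and -0.94). The 2 arrestins gave 0 calls at 2 and 8 h, and Arrb1 was lower at 24 h (-0.36 ± 0.09).

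Receptors upstream moved in both directions, in comparisons that called 14.5%, 52.2% and 53.6% of all genes at 2, 8 and 24 h. Of 26 Gi-coupled receptors 23 were measured, with 6 higher and 7 lower at 2 h, 9 and 10 at 8 h and 11 and 9 at 24 h. S1pr1, a sphingosine phosphate receptor, was lower at all 3 times (-1.16, -1.81 and -1.23). Of the ADP receptors, P2ry12 was higher at 8 and 24 h (0.84 and 1.30) and P2ry13 at 2 and 24 h (0.35 and 1.30). Of 10 Gq-coupled receptors 7 were measured, with 1 higher and 1 lower at 2 h, 3 and 4 at 8 h and 2 and 1 at 24 h. Cysltr1, a leukotriene receptor, was lower at 8 h (-1.24 ± 0.08) and 24 h (-0.47 ± 0.07). Of 9 Gs-coupled receptors 7 were measured, with 3 higher and 2 lower at 2 h, 3 and 3 at 8 h and 3 and 2 at 24 h. Ptger2, a prostaglandin E2 receptor, was higher at all 3 times (1.13, 1.09 and 1.35). Of 33 downstream effectors 28 were measured, with 2 higher and 3 lower at 2 h, 11 and 9 at 8 h and 5 and 12 at 24 h. Among them Adcy3, an adenylyl cyclase, was lower at 8 and 24 h (-0.79 and -1.40) and Plcb1, a Gq-activated phospholipase, was higher (1.23 and 1.67).

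**Figure D4:**
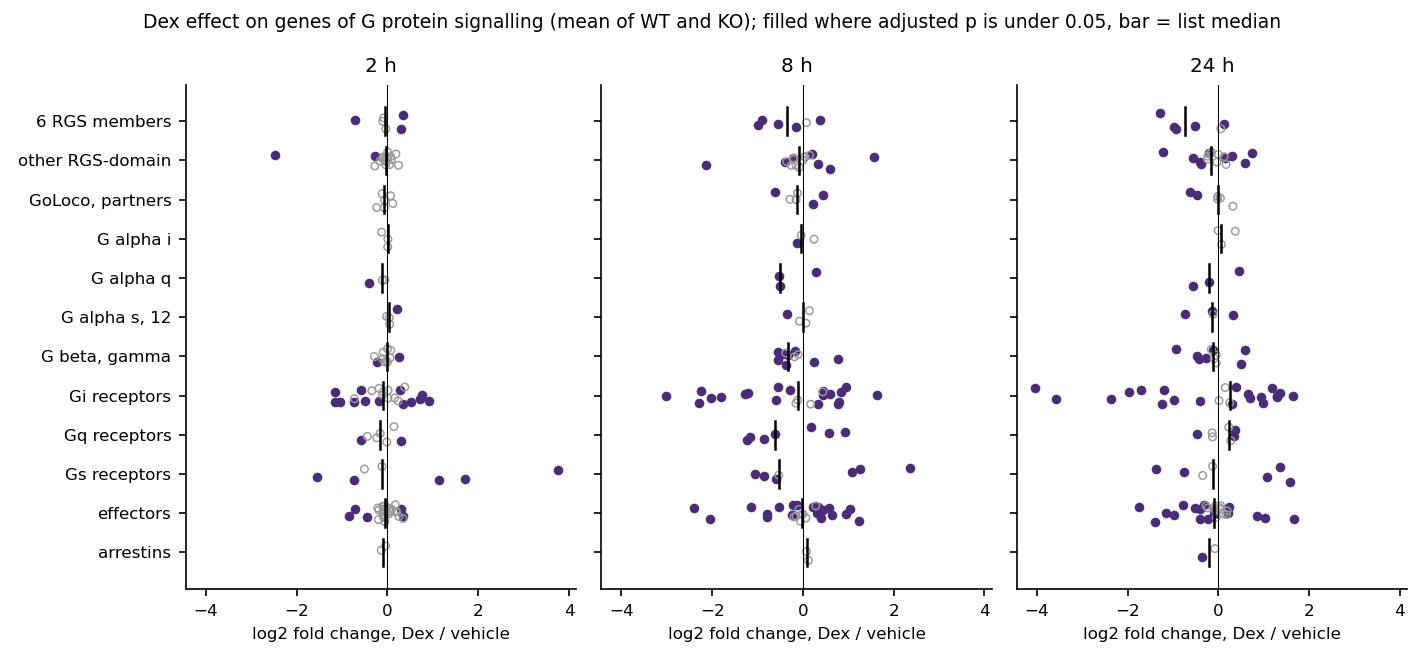
Log2 fold change of Dex against vehicle, averaged over the genotypes, on the horizontal axis, for each measured gene of the lists on the vertical axis at 2, 8 and 24 h. Points are filled where the adjusted p was under 0.05, and a bar marks each list's median. The bar of the 6 RGS genes lies at -0.06, -0.35 and -0.73 at the 3 times.

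The 6 profiles were last compared with each other and with all genes of at least 5 CPM, 9424 in number, by Pearson's r over the 14 group means of log2 CPM. These groups share treatments and libraries' scaling, so r describes likeness of pattern only. Among the 6, Rgs1 and Rgs2 were most alike (r = 0.87), followed by Rgs2 and Rgs18 (0.75) and Rgs1 and Rgs18 (0.73). These are the 3 genes of the chromosome 1 interval. The share of all genes that reach such values was not counted, and a part of gene position was not tested. Rgs10 and Rgs14 were the most opposed pair (r = -0.49). Closest to Rgs1 in the whole table were Mpp6, Rbm3 and Asns (r = 0.99, 0.98 and 0.98), and to Rgs2 P2ry1, Lonrf3 and Pqlc1 (0.98, 0.98 and 0.97). Rgs10 was closest to Calm2, Anapc15 and Evl (0.97, 0.97 and 0.96), and Rgs14 to Faf1, Slc35c2 and Ptpn22 (0.94, 0.93 and 0.91). Rgs18 was closest to Rfc3, Sass6 and Rpa2 (0.94, 0.94 and 0.94). Rgs19, the least variable of the 6, was closest to Mettl3, Ttc32 and Slc15a4 (0.88, 0.87 and 0.87).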

How the data were processed

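RNA was measured in 42 libraries, put into 14 groups by their titles. The authors deposited expected counts per gene for 11160 genes. The submitters' processing notes name GRCm38, Salmon, HISAT2 and fastp. Versions, annotation, strand setting and the gene filter were not given in the sources used here. The lowest gene total is 256 counts, so genes missing from the table were not analysed here. Estimated counts depend on how reads of close paralogs are shared out. All 252 values of the 6 RGS genes lie within 0.01 of a whole number.

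Counts were rounded and fitted with edgeR 4.0.16 (R 4.3.3), a quasi-likelihood F test on a single model of 14 group means with TMM scaling, p adjusted over all genes by Benjamini-Hochberg, called at an adjusted p of 0.05. The low-count filter removed 0 genes. SE is the log2 fold change divided by the root of F. Alternatives were DESeq2 1.42.0, median-ratio scaling, a 5 CPM filter, only the groups compared, replicate blocks and leaving out each library. Same-numbered replicates deviated together (each r over 0.1) for Dex against vehicle in WT at 8 h (lowest r 0.29) and 24 h (0.26) and in KO at 2 h (0.12) and 8 h (0.11), and between genotypes at 2, 8 and 24 h of vehicle (0.24, 0.23 and 0.23) and 2 h of Dex (0.25). The pairing comes from these data, not from the labels. Likeness used a prior count of 2.

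The RGS genes and the gene lists were chosen with earlier results of these data known. Named genes are the 6 RGS genes, Ms4a4a, up to 4 called genes of lowest p per list and time, and the 3 genes most like each RGS gene. Rgs16 at 24 h and Rgs12 beside Rgs14 are given for comparison. Some genes of the lists are not reported here.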

Additional observations from a re-analysis of the deposited data

How the results depend on the processing

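Of 2550 values of the 6 genes recomputed under alternatives, 2489 kept direction and side of the threshold, 36 lost and 25 gained a call, and 0 called values changed sign. In 97 the sign differed and neither value was called. The number of the 6 called for Dex against vehicle in KO at 2 h was 2, and 1 with only the groups compared, and it was 1 to 2 when single libraries were left out. Over all genes the calls there were 1160, then 804, and 846 to 1368 with single libraries left out. For the Dex effect at 24 h beyond 8 h the number of the 6 was 2, and 4 with the replicate block and 4 with the block within genotype, which added Rgs2 (adjusted p = 0.0419 and 0.0445) and Rgs19 (0.0367 and 0.0421). Calls over all genes went from 2888 to 3431 and 3566 in these fits. The block also added Rgs2 at 8 h beyond 2 h (0.0393 and 0.0424), where calls over all genes went from 3458 to 4004 and 4118. The cause was not tested. For vehicle 24 h against untreated the number of the 6 was 5, and 3 to 5 with single libraries left out. Over all genes it was 3464, and 2932 to 3513 with single libraries left out. No call of KO against WT or of the difference in Dex effect arose for the 6 genes under any of these alternatives.

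Over all genes, calls for Dex in WT at 24 h went from 4655 to 3101 and for vehicle 2 h against untreated from 1535 to 1007 with only the groups compared. For KO against WT without Dex they went from 25 to 71 with DESeq2 and 111 with the block. With Dex at 24 h they went from 5 to 25 with DESeq2, 17 with the block and 1 with only the groups compared. In the other KO conditions they were 0 or 1, and at most 5 in these fits. With single libraries left out they were 9 to 38 without Dex, 0 to 13 with Dex at 24 h, 0 to 14 with vehicle at 24 h, and 0 to 7 for the difference in Dex effect at 2 h, against 0 with all libraries. The median SE of 0.12 for 2 groups of 3 limits what could be detected between genotypes.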
